A study of Capra hircus with 3 samples.

Results

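Muscle contractile and sarcomere genes were compared between the skin of Arbas Cashmere goats kept under a short photoperiod and the skin of goats under a natural photoperiod. Members were the probes named PYGM or MYLPF on the array, together with probes whose description held myosin, troponin, tropomyosin, alpha-actin, calponin, transgelin, desmin, titin, nebulin or creatine kinase. This gave 17 genes, counted by the names on the array, on 20 probes in 24 spots, out of 15008 probes in 15208 spots. By the gene name or description on the array, 5 genes with 6 probes belonged to skeletal muscle, 5 genes with 7 probes to smooth muscle, 1 gene to more than 1 kind of muscle, and 6 genes to non-muscle cells. Nebulin, the smooth muscle regulatory light chain and every non-muscle member except MYL6 carry a cluster record in place of a gene symbol, so their identity rests on the description text alone.

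The animals were 6 female goats aged 2 years, 3 in each group. Goats of the short photoperiod group were outdoors from 9:30 to 16:30 and otherwise in a dark shed of about 0.1 lux, 1 °C cooler than outside, whereas control goats grazed in natural daylight. Each of the 3 Agilent sheep arrays carried skin RNA from the side of the body of 1 short photoperiod goat in Cy5 and 1 control goat in Cy3. The study describes comparing each goat with one of the same parent, but which goats shared an array is not given in the sources used here. The dyes were never exchanged, so the dye bias of a probe and the photoperiod cannot be told apart, and the number of arrays limits the precision. Ratios are of the short over the natural photoperiod on the log2 scale, positive where the short photoperiod goat had the higher level.

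In muscle cells, myosin heavy chains pull on actin filaments, and the light chains bound to them tune that movement. In skeletal muscle, calcium acts through troponin and tropomyosin on the thin filament. In smooth muscle it acts through myosin light chain kinase, which phosphorylates the regulatory light chain, while a phosphatase with a myosin-binding subunit reverses this. Skin holds smooth muscle in the arrector pili of the hair follicles and in vessel walls, and in many mammals a thin sheet of skeletal muscle lies beneath it. In bulk skin, fewer cells of a type and less RNA per cell cannot be told apart.

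PYGM, a skeletal muscle gene, and both probes of MYLK, a smooth muscle gene, had lower means under the short photoperiod, and MYLPF and nebulin, both of skeletal muscle, had higher means. The direction of PYGM, MYLPF and nebulin was the same after median centring of the arrays in place of loess, but 1 MYLK probe then lay at 0.00 and the other turned to 0.22. With limma, 0 of the 20 member probes had an adjusted p under 0.05, compared with 0.00668% of the 14977 probes tested. At an unadjusted p under 0.05 there were 6 member probes, or 30%, against 18.5% of all tested probes. The fit with trend and robust moderation called 0 members, and the fit of separate channels called 1 with the array as a block, where 1.41% of all probes were called, and 0 without it. Median centring called 5 members, where 12.6% of all probes were called. Of these 5, 1 was the slow myosin heavy chain, whose probe was not well above background. The mean changed 2-fold in 0 member probes and in 0.841% of all.

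In sharing a sign across arrays the members were near the background. Among the 18 member probes well above background and with a value on every array, 3 were higher on all 3 arrays, against 21.6% of all probes, and 5 were lower on all 3, against 22.0%. The levels of the 3 short photoperiod goats lay entirely below those of the 3 controls for 4 of the 18, against 7.16% of all probes, and entirely above for 0, against 6.44%. The 4 probes were that of PYGM, both of MYLK and that of the smooth muscle regulatory light chain, so they stand for 3 genes. The levels are those after loess, and after median centring the mean ratios of the MYLK probes and of the light chain were 0.00, 0.22 and 0.40.

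**Figure D1:**
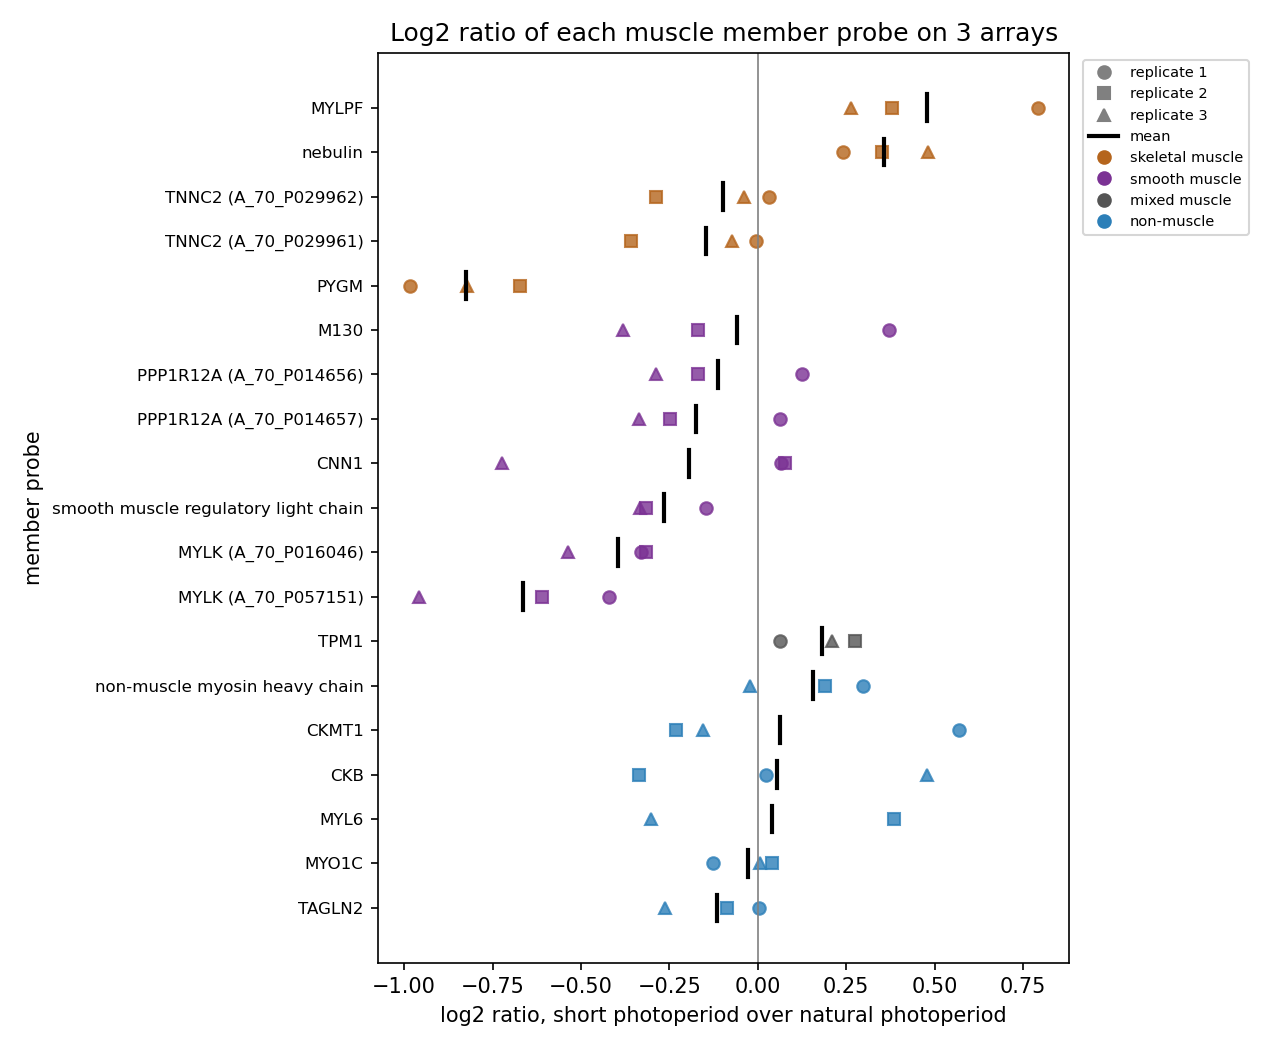
Log2 ratio of the short over the natural photoperiod after loess for the 19 member probes well above background in both channels, with 1 symbol for each array and a black bar at the mean. MYL6 has values on 2 arrays. PYGM and both MYLK probes lie below 0 on all 3 arrays and MYLPF and nebulin above it; after median centring the MYLK probes move to 0.00 and 0.22.

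PYGM is muscle glycogen phosphorylase, which releases glucose units from glycogen as fuel for contraction. Its normalised log2 level was 10.70, 11.21 and 10.61 in the short photoperiod goats of replicates 1, 2 and 3, and 11.69, 11.89 and 11.43 in their controls. The groups did not overlap, and the short photoperiod goat was the lower of the pair on every array. The log2 ratios were -0.98, -0.67 and -0.82, with a mean of -0.83 ± 0.16 (SD, n = 3) and a 95% interval from -1.11 to -0.54. This is a level 1.77-fold lower in the short photoperiod goats, with adjusted p = 0.155, so the difference did not pass the test.

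PYGM was the only member printed on 5 spots of each array, so its spot error can be read directly. The spots spanned -1.07 to -0.91 on replicate 1, -0.71 to -0.64 on replicate 2 and -0.87 to -0.77 on replicate 3. The SD between spots was 0.06, 0.03 and 0.04, and for the 50 probes printed on 5 spots its median was 0.06, 0.05 and 0.06. PYGM passed the threshold in 2 alternatives. With the channels taken as separate samples and the array as a replicate block, adjusted p = 0.0419, where 1.41% of all probes were called. After median centring, adjusted p = 0.0344, where 12.6% were called. Over all alternatives its adjusted p ran from 0.0344 to 0.447.

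MYLPF encodes the regulatory light chain of fast skeletal muscle myosin. Its log2 level was 13.66, 14.36 and 13.19 under the short photoperiod and 12.87, 13.98 and 12.93 in the controls. Both goats of replicate 2 were higher than the other goats of their groups, and the groups overlapped, although each short photoperiod goat exceeded its own partner. The log2 ratios were 0.79, 0.38 and 0.26, with a mean of 0.48 ± 0.28 (SD, n = 3), a 95% interval from 0.12 to 0.83 and adjusted p = 0.206. Among the alternatives only median centring took it past the threshold, with adjusted p = 0.0459 and a range over the alternatives up to 0.883.

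Nebulin is the giant protein that runs along the thin filament of the sarcomere. Its probe gave log2 ratios of 0.24, 0.35 and 0.48, a mean of 0.36 ± 0.12 (SD, n = 3) and adjusted p = 0.206, with a range over the alternatives up to 0.712. After median centring the mean was 0.22. The levels were 9.98, 9.71 and 10.10 under the short photoperiod and 9.74, 9.36 and 9.62 in the controls, and the groups overlapped.

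TNNC2 is the calcium-binding troponin subunit of fast skeletal muscle, which the array spells TNCC2. Its probes gave -0.01, -0.36 and -0.07 and, for the other, 0.03, -0.29 and -0.04. The means of -0.15 and -0.10 had 95% intervals from -0.45 to 0.15 and from -0.39 to 0.19, which include both directions. They were -0.04 and 0.00 without replicate 2, and -0.30 and -0.25 after median centring. These probes share 59 of their 60 bases and are 1 measurement in practice, with differences of 0.03 to 0.07 between them on an array. Capitals mark the shared bases, shown because the agreement of such a pair is not independent.
TNNC2 A_70_P029961: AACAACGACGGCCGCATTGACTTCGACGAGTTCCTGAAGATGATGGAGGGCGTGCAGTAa
TNNC2 A_70_P029962: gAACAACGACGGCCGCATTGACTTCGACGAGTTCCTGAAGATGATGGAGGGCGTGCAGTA

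The probe for a slow skeletal myosin heavy chain was not well above background in either channel on any of the 3 arrays, and no ratio is given for it. The 5 measured skeletal muscle probes therefore did not share a direction. After loess, 2 means lay above 0 and 3 below, and the same numbers were found after median centring. Their median log2 ratio was 0.03, -0.29 and -0.04 on the 3 arrays, with a mean of -0.10 ± 0.17 (SD, n = 3) that turned to 0.08 when the probes of a gene were averaged first. It was -0.25 after median centring and 0.00 without replicate 2. The median over all tested probes was 0.00 on each array.

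**Figure D2:**
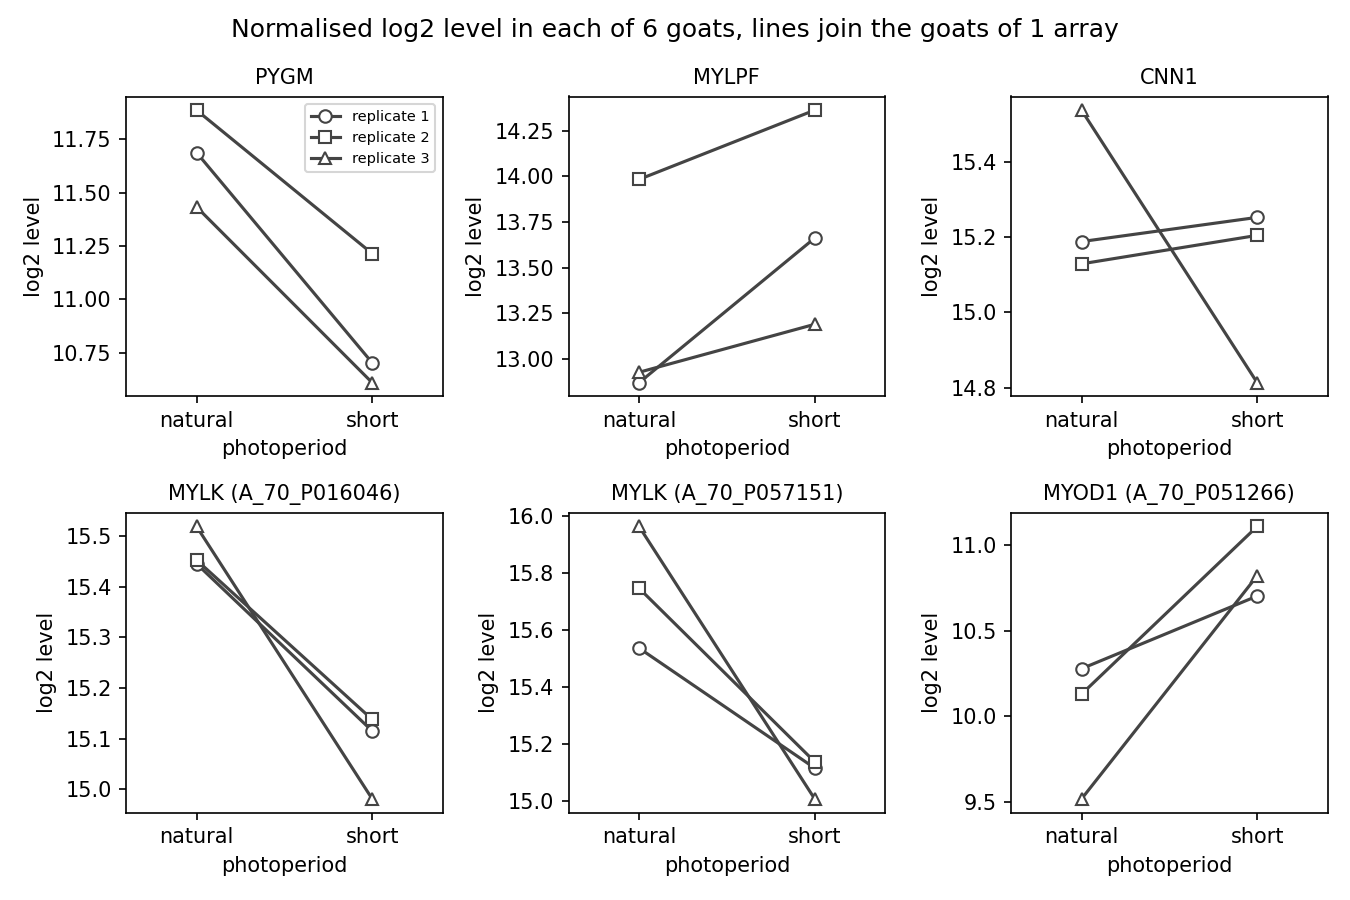
Normalised log2 level (vertical axis) in each of the 6 goats for PYGM, MYLPF, CNN1, both MYLK probes and 1 MYOD1 probe, with lines joining the 2 goats of an array. After loess the short photoperiod goats lie below every control for PYGM and MYLK and above every control for this MYOD1 probe; after median centring the mean ratios of the MYLK probes are 0.00 and 0.22.

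The 7 smooth muscle probes had means below 0 after loess, but 6 of the 7 had means above 0 after median centring. MYLK is the kinase that starts smooth muscle contraction, and a long form of it is also made in non-muscle cells. Its probe A_70_P057151 had levels of 15.11, 15.14 and 15.01 under the short photoperiod and 15.54, 15.75 and 15.96 in the controls. Probe A_70_P016046 had levels of 15.12, 15.14 and 14.98 against 15.45, 15.45 and 15.52. For both probes each control was above each short photoperiod goat. The controls differed among themselves by more at the first probe than at the second.

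The log2 ratios of A_70_P057151 were -0.42, -0.61 and -0.96, with a mean of -0.66 ± 0.27 (SD, n = 3) and adjusted p = 0.162, whereas median centring gave a mean of 0.00. Those of A_70_P016046 were -0.33, -0.31 and -0.54, with a mean of -0.39 ± 0.12 (SD, n = 3) and adjusted p = 0.192, and median centring turned the mean to 0.22. Over the alternatives the adjusted p ran from 0.0531 to 0.991 for the first and from 0.0886 to 0.569 for the second. The probes come from different sheep records and share no run of more than 7 bases, marked in capitals, so they read different stretches of MYLK transcripts. Which forms of the MYLK transcript each probe reads was not tested, so a ratio here need not be that of the kinase form. They lay 0.09, 0.29 and 0.42 apart on the 3 arrays.
MYLK A_70_P057151: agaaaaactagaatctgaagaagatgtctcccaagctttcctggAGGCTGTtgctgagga
MYLK A_70_P016046: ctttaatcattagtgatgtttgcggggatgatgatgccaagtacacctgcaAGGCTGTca

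The substrate of that kinase, the smooth muscle regulatory light chain, gave -0.15, -0.31 and -0.33. Its mean was -0.26 ± 0.10 (SD, n = 3) with adjusted p = 0.266 after loess, and 0.40 after median centring. The short photoperiod goats had levels of 15.36, 15.30 and 15.18 and the controls 15.50, 15.62 and 15.51, which did not overlap. The difference was small beside that of PYGM. Its 95% interval, which is not adjusted for the number of probes, reached from -0.52 to -0.0039.

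CNN1, or calponin, binds actin and restrains the myosin of smooth muscle. Its log2 ratios were 0.06, 0.08 and -0.72, so the mean of -0.19 ± 0.46 (SD, n = 3) rested on replicate 3 and was 0.07 without it. Median centring turned it to 0.38. In the goats of replicate 3 the level was 14.81 under the short photoperiod and 15.54 in the control, the lowest and the highest of the 6 goats.

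PPP1R12A is the myosin-binding subunit of the phosphatase that opposes MYLK. Its probes gave 0.12, -0.17 and -0.29, and 0.06, -0.25 and -0.34, with means of -0.11 and -0.17 that became 0.15 and 0.16 after median centring. M130 is described on the array as a myosin-binding subunit of a protein phosphatase. This is an older name for the same subunit, so M130 and PPP1R12A may be 1 gene under 2 names. Its probe gave 0.37, -0.17 and -0.38 and a mean of -0.06, against 0.16 after median centring and 0.10 without replicate 3. All of these probes were above 0 on replicate 1 and below it on replicates 2 and 3, and their means did not stand out from the spread between arrays. The PPP1R12A probes share 40 of 60 bases, in capitals, and differed by 0.05 to 0.08.
PPP1R12A A_70_P014656: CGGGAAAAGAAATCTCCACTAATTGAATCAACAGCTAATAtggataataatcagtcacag
PPP1R12A A_70_P014657: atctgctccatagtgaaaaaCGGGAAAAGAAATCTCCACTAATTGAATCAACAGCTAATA

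The median of the smooth muscle probes was 0.06, -0.25 and -0.38 on replicates 1, 2 and 3, a mean of -0.19 ± 0.23 (SD, n = 3) that turned to 0.16 after median centring. It was -0.31 without replicate 1 and -0.09 without replicate 3. On replicate 1, 4 of the 7 probes were above 0, on replicate 2 it was 1, and on replicate 3 it was 0. The array pairs thus differed in the sign of the median as well as in its size.

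TPM1, a tropomyosin found in several kinds of muscle and in other cells, gave 0.06, 0.27 and 0.21, with a mean of 0.18 ± 0.11 (SD, n = 3) and adjusted p = 0.395. After median centring the mean was 0.85 and adjusted p = 0.0349, with a range over the alternatives up to 0.957.

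The 6 members grouped as non-muscle by name or description were related genes, of which MYL6 is also used by smooth muscle. Their median log2 ratio was 0.02, -0.02 and -0.09, a mean of -0.03 ± 0.06 (SD, n = 3), which turned to 0.31 after median centring. It was -0.06 without replicate 1 and 0.00 without replicate 3. None of the 5 with a value on every array had the same sign on all 3.

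The non-muscle myosin heavy chain gave 0.30, 0.19 and -0.02. MYO1C, a motor that links membranes to actin, gave -0.13, 0.04 and 0.01. TAGLN2, a relative of the smooth muscle protein transgelin, gave 0.00, -0.09 and -0.26, and its mean of -0.12 turned to 0.37 after median centring. These ratios were near the spread between arrays.

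CKB, the creatine kinase of brain and many other tissues, gave 0.02, -0.33 and 0.48. CKMT1, its mitochondrial relative, gave 0.57, -0.23 and -0.15. MYL6, the essential light chain of smooth and non-muscle myosin, had an outlier spot on replicate 1 and gave 0.38 and -0.30 on the others. In each of these genes the arrays disagreed in sign, so the means of 0.06, 0.06 and 0.04 describe no common change, although median centring moved them to 0.62, 0.48 and 1.19. MYL6 was then called, with adjusted p = 0.0364 and a range over the alternatives up to 0.995, and was the 1 member changed 2-fold. Its mean level was above 16, where the median ratio of all probes was 0.99 after median centring.

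**Figure D3:**
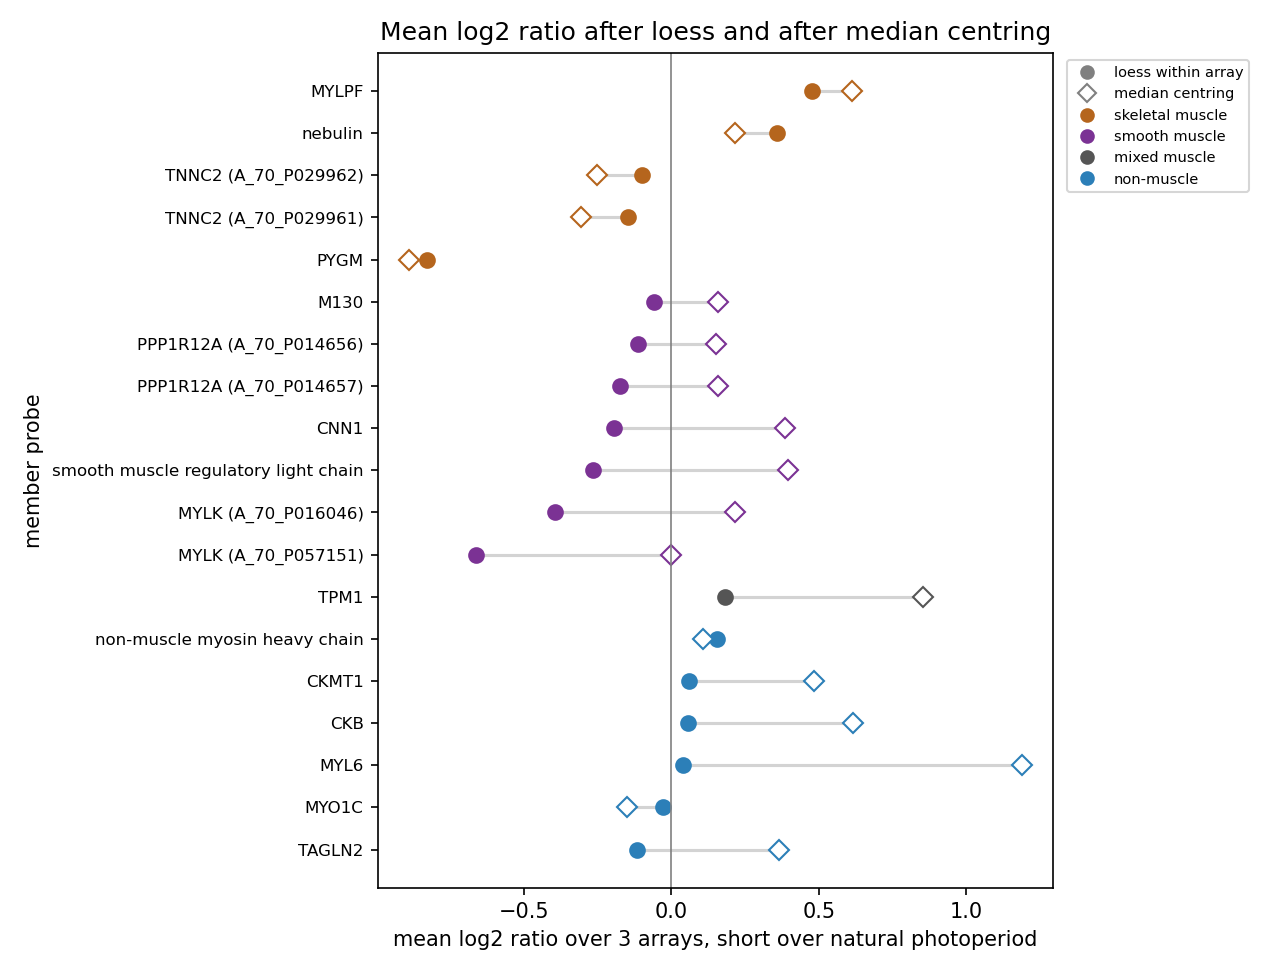
Mean log2 ratio (horizontal axis, short over natural photoperiod) of the 19 measured member probes after loess (filled circles) and after median centring (open diamonds). Of the 7 smooth muscle probes, 7 lie below 0 after loess and 6 above 0 after median centring, while PYGM, MYLPF, nebulin and TNNC2 keep their side.

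The shift between normalisations followed the brightness of the probes. Over all probes with a mean log2 level from 15 to 16, the median ratio was 0.01 after loess and 0.63 after median centring, and for those under 8 it was -0.01 and -0.46. For the 96 probes above 16, MYL6 among them, it was 0.02 and 0.99. CNN1, the regulatory light chain and both MYLK probes had mean levels from 15 to 16, and PYGM, nebulin and TNNC2 from 8 to 12. The median spot intensity before normalisation on the 3 arrays was 4587, 6436 and 7120 for Cy5, and for Cy3 it was 2688, 3668 and 3911. How much of this slope came from the dyes alone was not tested.

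Lists of other muscle genes were read in the same way. Of the 52 listed striated muscle genes, 11 were matched to 18 probes, and 12 probes of 9 genes were measured, that is, clearly over background in both dyes on every array. By limma 0 of these 18 probes passed the threshold after adjustment, and 5 had an unadjusted p under 0.05, against 18.5% of all tested probes. Of the 12 measured probes, 5 were higher on all 3 arrays, against 21.6% of all probes, and 2 were lower, against 22.0%. The median of their means was 0.05 after loess and -0.08 after median centring.

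MYOD1, the transcription factor that commits cells to skeletal muscle, had the highest means. Its probe A_70_P051266 gave 0.42, 0.98 and 1.30, and A_70_P051267 gave 0.41, 0.80 and 1.21, but the probes share 59 bases and are nearly 1 measurement. The means were 0.90 ± 0.45 and 0.81 ± 0.40 (SD, n = 3), with adjusted p = 0.162 and 0.163. At the first probe the levels were 10.70, 11.11 and 10.82 under the short photoperiod and 10.28, 10.13 and 9.52 in the controls, without overlap, and at the second the groups overlapped. After median centring the first had adjusted p = 0.0470, with a range over the alternatives up to 0.447.

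CAPN3, a muscle calpain, came next with ratios of 0.81, 0.21 and 0.27 and a mean of 0.43 ± 0.33 (SD, n = 3). This mean rested largely on replicate 1. The lowest means were those of FHL1, a LIM protein of muscle, at -0.52 ± 0.38, of PDLIM3, which binds alpha-actinin at the Z line, at -0.42 ± 0.28, and of the glucose transporter SLC2A4 at -0.12 ± 0.24 (SD, n = 3). None passed the test. Each kept its direction after median centring, but CAPN3 was then at 0.16. The ratios of this SLC2A4 probe were 0.13, -0.14 and -0.34, and its mean was -0.01 without replicate 3. MYOG and MYF5, which act beside MYOD1 in muscle precursors, were not well above background in both channels on every array, so they get no ratio. PYGM and MYOD1, both read as skeletal muscle genes, thus lay on opposite sides of 0.

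Of the 12 listed actin cytoskeleton genes, 5 were matched to 9 probes, and 0 passed limma's threshold. At an unadjusted p under 0.05 there were also 0, against 18.5% of all tested probes. The highest means were 0.61 and 0.17, from probes of ACTB, the cytoplasmic beta-actin, and 0.09 from CFL1, an actin-severing protein. The first rested largely on replicate 3, with ratios of 0.06, 0.39 and 1.38 and a mean of 0.23 without that array. The second had ratios of -0.10, 0.19 and 0.41, and over the alternatives its mean ran from 0.00 to 0.69. The lowest means were -0.23 and -0.16 from VIM, on 2 arrays, and -0.06 from another ACTB probe. VIM is in the list although it forms intermediate filaments, not actin filaments. Both VIM means turned to 0.74 and 0.75 after median centring. The first ACTB probe was then at 1.28 with adjusted p = 0.0370, ACTG1 at 0.98 and TMSB10 at 0.94, each of these with adjusted p = 0.0344, and over the alternatives the adjusted p ran up to 0.796, 0.990 and 0.995. The ACTG1 and TMSB10 probes had mean levels above 16, where the median ratio of all probes was 0.99 after median centring. The 3 ACTB probes did not share a direction. Of the 15 listed smooth muscle genes outside the rule, 0 were matched to a probe.

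Markers of other cell types of skin were read beside these results. For adipocytes, 5 of 10 listed genes were matched, with 9 of 10 probes well above background. The log2 of their summed level was 13.73, 13.67 and 13.61 in the short photoperiod goats and 14.22, 13.87 and 14.11 in the controls, with LPL contributing most. LPL, which releases fatty acids from circulating fat, had means of -0.67, -0.66 and -0.72 at its 3 probes, the first of them at 0.00 on replicate 2. These means were -0.44, -0.41 and -0.48 without replicate 1, and stayed below 0 after median centring. The last of these probes had adjusted p = 0.200 after loess and 0.04999, just under the threshold, after median centring, with a range over the alternatives up to 0.681. Over the list, 6 of 9 probe means were below 0 after loess and 8 of 9 after median centring. LEP had -0.42 and -0.33, and -0.14 and -0.02 without replicate 3. PNPLA2 had -0.24, but 0.12 without replicate 3, and PLIN1 had 0.02 at both probes, which turned to -0.24 and -0.29 after median centring. SCD, a fatty acid desaturase, gave -0.39, -0.33 and 1.12, so its mean of 0.13 rested on replicate 3 and was -0.36 without it. For endothelium, 5 of 9 genes were matched, and the log2 of the summed level was 14.81, 14.93 and 14.69 against 15.15, 15.32 and 15.14, with PECAM1 contributing most. Here 5 of 8 probes were lower on all arrays, against 22.0% of all probes. These were both probes of SELE, both of TEK and that of PECAM1, so they stand for fewer genes than probes. SELE, an adhesion molecule of activated vessels, was lowest with a mean of -1.03 ± 0.23 (SD, n = 3) and adjusted p = 0.155. Its other probe had a mean of -0.66 ± 0.34 (SD, n = 3) and adjusted p = 0.180. Over the alternatives the adjusted p ran from 0.0278 to 0.387 for the first and from 0.0344 to 0.530 for the other. After median centring it was 0.0344 at both SELE probes. The growth factor receptor KDR lay on the other side, with means of 0.33 and 0.27 at its probes that were 0.17 and 0.09 after median centring. Its ratios on replicate 3 were below 0, at -0.18 and -0.22, and the means without that array were 0.59 and 0.52. In both lists every short photoperiod goat had, after loess, a lower summed level than every control. PYGM and, after loess, MYLK lay on the same side. The sums were not computed after median centring, and LPL enters that of adipocytes with 3 probes. The part of these cell types in the ratios of PYGM and MYLK was not tested.

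The summed levels of the fibroblast and red cell lists, also after loess, overlapped between the groups. For fibroblasts 7 of 7 genes were matched, and the log2 of the summed level was 17.65, 17.71 and 17.78 against 18.08, 17.52 and 17.66, with DCN contributing most. The DCN probes had means of 0.06 and 0.16 after loess, which were -0.07 and 0.04 without replicate 2. After median centring they were 0.93 and 0.98 with adjusted p = 0.0348 and 0.0365, with ranges over the alternatives up to 0.991 and 0.963. The sum hides differences within the list, since 9 of 11 probe means were below 0 after loess and 6 of 11 after median centring. COL3A1, a fibrillar collagen of the dermis, was lower on all arrays at 3 probes, with means of -0.60, -0.62 and -0.72 that stayed below 0 after median centring. A further COL3A1 probe, with values on 2 arrays, had -0.63 and turned to 0.16. For the red cell list 1 of 6 genes was matched, HBB, with 12.88, 12.24 and 11.99 against 12.67, 14.28 and 10.96. The control goat of replicate 2 was the highest in HBB and that of replicate 3 the lowest.

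The summed level of the keratinocyte list and the level of the nerve marker, both after loess, did not overlap between the groups. For keratinocytes 3 of 9 genes were matched, and over the 2 probes with a value on every array the log2 of the summed level was 16.74, 16.65 and 16.51 against 15.67, 16.26 and 16.46, with KRT14 contributing most. KRT14, a keratin of basal keratinocytes, gave 1.25, 0.64 and 0.16, with a mean of 0.68 ± 0.54 (SD, n = 3) and adjusted p = 0.227. After median centring its mean was 1.55 with adjusted p = 0.0334, and over the alternatives the adjusted p ran up to 0.550. KRT5 had a value on 1 array only under the main settings and was not tested there. In the alternatives that tested it, the mean ran from 0.53 to 0.59 and the adjusted p from 0.310 to 0.355. The other probe in the sum, of the junction protein DSP, overlapped between the groups, with ratios of 0.53, -0.27 and -0.28. Of the nerve list 1 of 6 genes was matched, PMP22, a myelin protein, with ratios of -0.32, -0.24 and -0.46 and a mean of -0.34 that was -0.02 after median centring. The part of these cell types in the muscle ratios was not tested.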

How the data were processed

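Skin RNA of 3 short photoperiod goats (Cy5) and 3 natural photoperiod goats (Cy3) was measured on 3 sheep arrays on 1 slide. The authors read the scanned images with Feature Extraction 10.7.3.1, and the deposited files hold spot and background intensity, not normalized. They also hold the authors' log10 ratio of processed signals, and the deposited value table holds log2 ratios, Cy5 over Cy3. In 14958 probes with 1 spot, 99.96% to 100% of table values matched processed Cy5 over Cy3 (tolerance 0.001, log2), and its column medians were 0.01, 0.00 and 0.02.

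Ratios were computed in R 4.3.3 with limma 3.58.1. Background was corrected by normexp (offset 50) over the whole array, after which controls were dropped and each array was normalized by loess. The 38, 65 and 91 spots with an outlier flag had weight 0 and were left out. Spots of a probe were averaged, and probes with values on at least 2 arrays were tested against 0 by limma (lmFit, eBayes), with Benjamini-Hochberg adjustment over 14977 probes and a threshold of 0.05. Levels of single goats are log2 channel values after Aquantile. A two-sided sign-flip test of 3 arrays cannot go below 0.25, so none was run. The ratio pairs the 2 goats of an array. The paper's discussion describes comparisons between goats of the same parent, without naming the pairs. The within-array correlation of the separate channels was 0.619.

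Every member probe well above background was named; of the other muscle lists, the 3 highest and 3 lowest means were named. Members and lists were chosen with earlier results of these data known. The test was checked on simulated data with changes larger than the mean of any member. Its power at the sizes reported here was not tested. Figures were drawn with matplotlib 3.10.9.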

Additional observations from a re-analysis of the deposited data

How the results depend on the processing

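Under the other settings tried, including 1 chosen after seeing the data that kept outlier spots in the loess curve, PYGM, MYLPF, nebulin, TNNC2, TPM1 and the non-muscle myosin heavy chain kept their direction. Median centring changed the most member calls: 5 members were called (MYLPF, TPM1 and MYL6 higher, PYGM and the dim slow myosin heavy chain lower) and 1 changed 2-fold. Over all probes it called 1014 higher and 866 lower, against 0 and 1 after loess, and changed 370 probes 2-fold against 126, while the value table gave 474, Feature Extraction's log ratio 291, normexp without an offset 198 and leaving out replicates 1 and 2 in turn 286 and 208. It turned the median of smooth muscle members to 0.16 and of non-muscle members to 0.31, and the means of CNN1 to 0.38, MYLK A_70_P016046 to 0.22, the regulatory light chain to 0.40, PPP1R12A to 0.15 and 0.16, M130 to 0.16 and TAGLN2 to 0.37. With the array as a replicate block, 1 member, PYGM, was called, with 211 calls over all probes, and without the replicate block 0 members and 0 probes were called; the block changed no other member's call. Members with an unadjusted p under 0.05 numbered 6 by the paired ratio, 5 with the block, 3 without it and 5 with trend and robust moderation, which called 0 members; over all probes these shares were 18.5%, 20.1%, 7.43% and 18.3%. CKB turned to -0.0489 with both Feature Extraction's log ratio and the value table. MYL6 turned to -0.0126 with the value table, -0.11 with outlier spots kept and -0.0226 with them kept in the curve only. Averaging the probes of a gene turned the skeletal muscle median to 0.0809. Leaving out 1 array moved the mean of CNN1 between -0.33 and 0.0698, M130 between -0.28 and 0.10, CKB between -0.16 and 0.25, CKMT1 between -0.19 and 0.21, PPP1R12A between -0.23 and -0.02 and between -0.29 and -0.09, TAGLN2 between -0.17 and -0.04, the non-muscle myosin heavy chain between 0.08 and 0.24 and MYO1C between -0.0600 and 0.0230; without any 1 array 0 members were called, as were 0 of all probes. The cause of these changes was not tested. Signal over background limits the slow myosin heavy chain, MYOG and MYF5, for which no ratio could be given. The arrays number 3, the dyes were not swapped, and the effect of mismatches between sheep probes and goat RNA was not tested.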
